A study of Mus musculus with 6 samples.

Results

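The antioxidant genes described here are the transcription factor gene Nfe2l2, which encodes NRF2, its inhibitor Keap1, and 8 genes that NRF2 is known to induce: Gclc, Gclm, Gsr, Txnrd1, Srxn1, Nqo1, Cbr3 and Osgin1. They were taken by gene symbol from a table of liver expression, in which all 10 were found among 23415 genes. The tested mice lacked alkaline sphingomyelinase (alk-SMase, encoded by Enpp7), a membrane enzyme known mainly from the intestine that splits sphingomyelin. Livers of alk-SMase knockout mice and of wildtype mice, all C57BL/6, were compared by RNA sequencing. There were 3 libraries per genotype, each taken here as 1 mouse from the numbers in the sample names. Genotype was read from the letters K and W in the sample names. The sources used here give no age, sex or feeding state of the mice, nor how the allele was made or whether littermates were used. The table holds 1 value per genotype and none per mouse, in FPKM, fragments scaled to transcript length and sequencing depth, so no spread between mice can be shown.

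NRF2 is held in the cytoplasm by KEAP1, which hands it to a ubiquitin ligase for destruction. Oxidants and electrophiles modify cysteines of KEAP1, NRF2 then escapes, and in the nucleus it pairs with small MAF proteins on antioxidant response elements. The genes it switches on make and recycle glutathione, reduce thioredoxin and clear quinones. In liver, hepatocytes make glutathione in quantity, both for their own defence and for export. Because NRF2 is controlled largely through its breakdown, its mRNA is a poor gauge of its activity, and the mRNAs of its targets are the usual readout.

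The core of the antioxidant response element, TGACNNNGC, was searched on both strands from 250 bases before to 50 bases after the annotated starts. Such elements are where NRF2 pairs with small MAF proteins, and whether it acts on the members through these windows was not tested. RefSeq promoter windows (GRCm38.p6) were at hand for 8 of the members, Gclc and Gsr being the others. Of these 8, 4 held a match, while 14% of all 27025 genes with a window did. Over single windows the share was 12.4% of 32851. The matches are printed 5′ to 3′ on the strand that reads TGACNNNGC, with the 9 matched bases in capitals and 10 flanking bases on each side.
Nfe2l2: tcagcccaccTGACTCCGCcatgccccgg
Gclm: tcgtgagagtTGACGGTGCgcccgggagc
Txnrd1: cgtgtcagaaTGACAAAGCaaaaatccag
Srxn1: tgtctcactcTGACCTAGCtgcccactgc
The Nfe2l2 stretch is chr2:75704885-75704913 on the minus strand, where the matched bases lie at -240 to -232 from the RefSeq start of Nfe2l2 at 75704663, which lies upstream of the start in the authors' table. The Gclm stretch is chr3:122245413-122245441 on the minus strand, opposite to the gene, with its matched bases at -134 to -126. The Txnrd1 stretch, chr10:82859104-82859132 on the minus strand, has its match at -92 to -84 from 1 of 3 RefSeq starts of that gene, at 82859206, and also runs opposite to it. The Srxn1 stretch is chr2:152105542-152105570 on the minus strand, again opposite to the gene, with the match at bases 29 to 37 of the transcript. None of the 4 matches starts with the AP-1 site TGACTCA. Its complement TGAGTCA cannot occur inside TGACNNNGC, and bases outside the matches were not searched for either. A match of these letters is a description of the window and not a binding site, and the windows of Keap1, Nqo1, Osgin1 and Cbr3 held no match within their 300 bases.

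Enpp7 stood at 0.141 FPKM in knockout livers and 0.0541 FPKM in wildtype livers and was not tested by the authors, so it does not check the genotype labels. The design text speaks of intestine while the tissue label says liver. The hepatocyte transcripts Apoa1 (16007 FPKM in knockout livers, 11662 FPKM in wildtype livers) and Ttr (6867 and 7229 FPKM) were abundant in both genotypes. So were Ahsg (7334 and 5252 FPKM) and Tat (769 and 1219 FPKM) of the same marker list. Alb, and likewise Apoe, was listed at 0 in both groups with a mark for too many reads, and adds nothing to sums of FPKM. The 14 listed intestinal markers summed to 183 FPKM in knockout livers and 180 FPKM in wildtype livers, with 0 of 6 tested called. Most of that sum was Apoa4 (86.5 and 98.6 FPKM), Tff3 (48.8 and 23.9 FPKM) and Fabp2 (42.9 and 54.7 FPKM), while the intestinal factors Cdx1 and Cdx2 were at most 0.0488 FPKM. No intestinal marker was at 0. Of 10 tested neutrophil markers 4 were called higher, and of 12 tested macrophage markers 2 were. All 22 had ratios above 0. Of all 11515 tested genes, 0.573% were called higher and 0.504% lower, and 49.9% of those with a finite ratio were above 0. When both genotypes were scaled to the same summed FPKM, the neutrophil count stayed at 4, no macrophage marker was called and 2 of them lay below 0. That scaling called 1.64% of all tested genes in either direction and left 22.8% above 0. The 12 listed neutrophil markers summed to 110 FPKM in knockout livers and 6.75 FPKM in wildtype livers, and the 14 macrophage markers to 530 and 335 FPKM. No marker of either list was at 0. Of the endothelial and stellate cell markers, 10 of 14 were below 0 and 0 were called, with sums of 153 FPKM in knockout livers and 166 FPKM in wildtype livers. Under the scaling to the same summed FPKM all 14 were below 0, and 1 of them, Reln, was called lower (q = 0.0174). Whole tissue was measured, so a change in the number of cells of a type and a change in RNA per cell cannot be told apart, and the part of these cell types in the values below was not tested.

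No NRF2 or glutathione synthesis gene passed the test between knockout and wildtype livers. Of the 10 members, 0 were higher and 0 lower at a q under 0.05 in the authors' deposited table, where 1.08% of the 11515 tested genes were called. All 10 had passed the authors' filter on low values. At an unadjusted p under 0.05 there were 2 members, Osgin1 and Gclc, both higher in knockout livers; 5.29% of all tested genes reached that p, 2.82% on the higher side. Ratios are given as log2 of knockout over wildtype, so that a positive value means more in knockout livers, followed by the standard error of the authors' model. Over the members the ratios ran from -0.34 to 0.62 with a median of 0.05, beside a median of -0.00 (-0.0012) over all tested genes. There were 6 members above 0, while 49.9% of tested genes with a finite ratio were above 0. With both genotypes scaled to the same summed FPKM, 2 members were above 0, beside 22.8% of the genes, and the median of all genes moved to -0.20. The count of called members was also 0 under that scaling (1.64% of genes called), with the same upper quartile (1.08%), after quantile normalization (1.09%), over genes with a mean of at least 1 FPKM (1.19%) and at a q under 0.1 (1.42%).

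**Figure D1:**
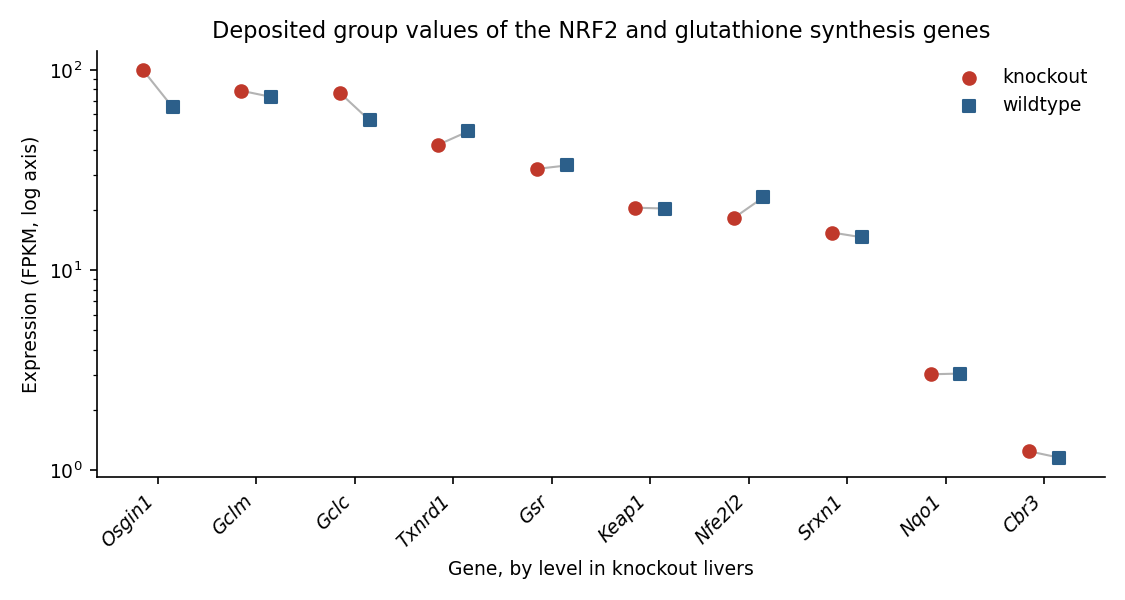
Deposited FPKM (log axis) of the 10 members in knockout livers (red circles) and wildtype livers (blue squares), 1 value per genotype, so there are no error bars. Genes are ordered by their level in knockout livers, from Osgin1 at 99.9 FPKM to Cbr3 at 1.24 FPKM.

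Per length, the members spread over a wide range of levels, and their order was nearly the same in both genotypes. Osgin1, Gclm and Gclc took the first 3 places in each, between 76.8 and 99.9 FPKM in knockout livers and between 56.0 and 73.4 FPKM in wildtype livers. Txnrd1 and Gsr followed in that order in both groups. Keap1, Nfe2l2 and Srxn1 lay between 15.4 and 20.5 FPKM in knockout livers and between 14.6 and 23.1 FPKM in wildtype livers, and Nqo1 and Cbr3 came last in each. The order differed at 2 places: Osgin1 stood above Gclm in knockout livers and below it in wildtype livers, and Keap1 stood above Nfe2l2 in knockout livers and below it in wildtype livers. Which neighbours in this order differ beyond their spread cannot be said from 1 value per group. The 10 genes summed to 388 FPKM in knockout livers and 340 FPKM in wildtype livers. All 23415 genes summed to 646306 FPKM in knockout livers and 564749 FPKM in wildtype livers, so the total was also higher in knockout livers. By mean level they ranged from percentile 12.6 of the tested genes (Cbr3) to percentile 91.8 (Osgin1).

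The sensor pair showed no called difference. Nfe2l2 (chromosome 2, 75675519 to 75704641, mm10, minus strand) stood at 18.2 FPKM in knockout livers, against 23.1 FPKM in wildtype livers. That is a log2 ratio of -0.34 ± 0.23 with a 95% interval from -0.79 to 0.10 (q = 1.00 in the authors' deposited table), the lowest ratio among the members. Keap1 (chromosome 9, 21229730 to 21239332, minus strand), the substrate adaptor that marks NRF2 for destruction, stood at 20.5 FPKM in knockout livers and 20.3 FPKM in wildtype livers. Its ratio of 0.01 ± 0.24 has a 95% interval from -0.45 to 0.48. With both genotypes scaled to the same summed FPKM the ratio of Nfe2l2 was -0.54, with an unadjusted p of 0.0186 and a q of 0.373; under that scaling 8.93% of all tested genes had an unadjusted p under 0.05, 7.56% on the lower side. The ratio of Keap1 turned to -0.18 there.

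Both subunits of glutamate-cysteine ligase, which makes the first and rate-limiting bond of glutathione, were among the more abundant members. The catalytic subunit Gclc (chromosome 9, 77754535 to 77794489, plus strand) had 76.8 FPKM in knockout livers, against 56.0 FPKM in wildtype livers. Its ratio of 0.45 ± 0.23 is a 1.37-fold difference with a 95% interval from 1.00 to 1.88. The unadjusted p was 0.0494 and q = 0.937 in the authors' deposited table. Under the same-sum scaling the ratio was 0.26 and the unadjusted p 0.261. The modifier subunit Gclm (chromosome 3, 122245557 to 122267215, plus strand), which raises the affinity of the enzyme for its substrates, had 78.8 FPKM in knockout livers and 73.4 FPKM in wildtype livers. Its ratio was 0.10 ± 0.22, with an interval from -0.34 to 0.54, and it turned to -0.093 under the same-sum scaling. In folds the interval ran from 0.79 to 1.45.

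None of the recycling enzymes reached an unadjusted p under 0.05. Gsr (chromosome 8, 33653238 to 33698162, plus strand), the reductase that returns oxidised glutathione to its reduced form, stood at 32.1 FPKM in knockout livers and 33.3 FPKM in wildtype livers. Its ratio was -0.06 ± 0.22, with an interval from -0.49 to 0.38 and the smallest error among the members, and -0.25 under the same-sum scaling. Txnrd1 (chromosome 10, 82833951 to 82897724, plus strand), the cytosolic selenoenzyme that reduces thioredoxin, stood at 42.4 FPKM in knockout livers, against 49.3 FPKM in wildtype livers (-0.22 ± 0.23, interval -0.67 to 0.23). Under the same-sum scaling its ratio was -0.41 with an unadjusted p of 0.0707. Srxn1 (chromosome 2, 152105524 to 152111376, plus strand), which repairs over-oxidised peroxiredoxins, stood at 15.4 FPKM in knockout livers and 14.6 FPKM in wildtype livers. Its ratio was 0.08 ± 0.23, with an interval from -0.37 to 0.53, and it turned to -0.12 under the same-sum scaling.

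The quinone and carbonyl reductases were the least abundant members and had the widest intervals. Nqo1 (chromosome 8, 107388225 to 107403205, minus strand), a quinone reductase and a textbook NRF2 target, stood at 3.02 FPKM in knockout livers and 3.04 FPKM in wildtype livers. Its ratio of -0.01 ± 0.37 leaves an interval from -0.74 to 0.71, or 0.60-fold to 1.64-fold. Cbr3 (chromosome 16, 93683219 to 93690991, plus strand), a carbonyl reductase, stood at 1.24 FPKM in knockout livers and 1.16 FPKM in wildtype livers. Its ratio was 0.10 ± 0.54, with an interval from 0.52-fold to 2.24-fold, and it turned to -0.090 under the same-sum scaling. With this error, a log2 ratio below 1.87 in either direction would not have reached the smallest z of any called gene.

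Osgin1 had the largest ratio and the smallest p of the members. The gene (chromosome 8, 119437162 to 119446256, plus strand) encodes an oxidative stress induced growth inhibitor. It stood at 99.9 FPKM in knockout livers, against 65.2 FPKM in wildtype livers, a ratio of 0.62 ± 0.23 and a 1.53-fold difference with an interval from 1.11 to 2.11. The unadjusted p was 0.00860 and q = 0.346 in the authors' deposited table, and 2.48% of all tested genes had a smaller p. Under the same-sum scaling its ratio was 0.42 with an unadjusted p of 0.0725. Osgin1 and Gclc were the 2 members that stayed above 0 there.

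**Figure D2:**
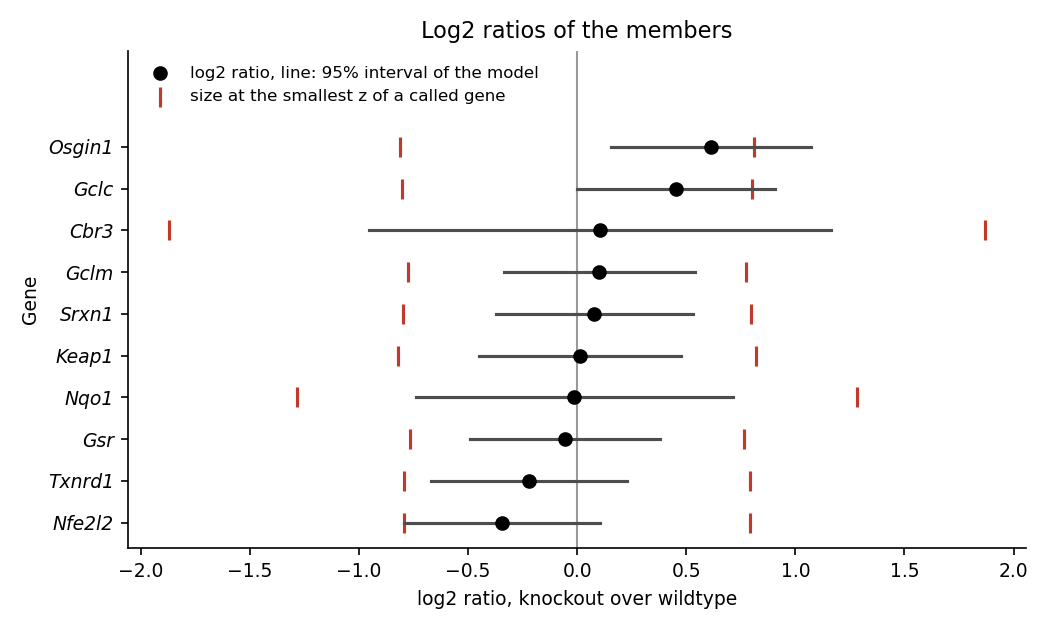
Log2 ratio of knockout over wildtype for each member (points) with the 95% interval of the authors' model (lines); red ticks mark the ratio at which the gene would have reached the smallest z of any called gene. All 10 points lie between their ticks; the intervals of Osgin1 and Gclc lie above 0.

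The precision of the table sets how small a difference could have been called. The standard errors of the members ran from 0.22 to 0.54 with a median of 0.23, beside 0.28 over all tested genes. The smallest absolute z among called genes was 3.46. With its own error, Gsr would have reached that z at a log2 ratio of 0.77 in either direction, Osgin1 at 0.81, Nqo1 at 1.28 and Cbr3 at 1.87. Differences below these sizes were not detectable as calls, and a missing call does not show equal levels. Between 10 and 100 FPKM, where 8 members lay, 49 of 3698 tested genes were called, the smallest of them at an absolute log2 ratio of 0.78.

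**Figure D3:**
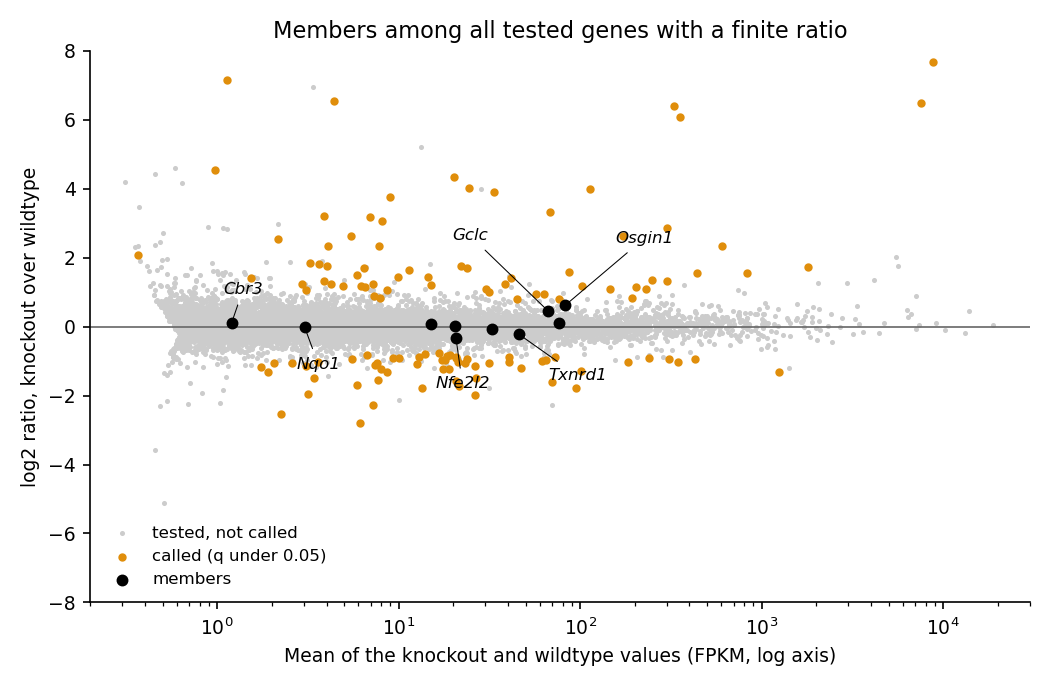
Mean of the knockout and wildtype values (FPKM, log axis) against the log2 ratio of knockout over wildtype for 11456 tested genes with a finite ratio; called genes are orange and the 10 members black. The members lie between -0.34 and 0.62, inside the grey cloud of genes that were not called.

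Reads of the members were mostly their own as far as the annotation shows. In GENCODE M21 (GRCm38) all 10 are protein coding, and 7 of them had 0 stretches of 50 bases, the read length, in common with transcripts of another gene. Keap1 shared 7.78% of its 50-base stretches with Gm16754, which overlaps 10.9% of the exonic bases of Keap1 on the opposite strand. Gclm shared 4.58% in all, of which 3.91% with Gm17494 on the opposite strand, 3.07% with the pseudogene Gm6061 on its own strand and 3.24% with Ppia on another chromosome; these shares overlap. Strand-specificity of the libraries and the handling of reads with several matches are not stated in the labels, so reads of Keap1 and Gclm in these stretches cannot be assigned with certainty. Cbr3 shared 1 of 1254 stretches, with its neighbour and paralog Cbr1.

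Around the members, 5 lists of related genes held 3 calls among 102 tested genes, counting each gene once. Partners, relatives and regulators of NRF2 held none among 15 tested. Of 28 tested other NRF2 targets 1 was lower, of 24 genes of glutathione supply and turnover 1 was higher, of 20 thioredoxin and glutaredoxin genes 0 passed the test, and of 17 genes of NADPH supply 1 was lower. All tested genes together had 0.573% called higher and 0.504% called lower. The list of other NRF2 targets was not exhaustive. Genes of the other lists can be NRF2 targets too, as Sqstm1 among the regulators is, so its count does not cover all NRF2 targets.

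Among the partners and regulators the median ratio was 0.14, and 9 of 15 were above 0, beside 49.9% of all tested genes. Nfe2, the blood-cell relative of NRF2, had 0.632 FPKM in knockout livers and 0.205 FPKM in wildtype livers (1.63 ± 0.78, unadjusted p = 0.0373, q = 0.840 in the authors' deposited table). It was the sole gene of this list at an unadjusted p under 0.05. The neutrophil markers summed to 110 FPKM in knockout livers and 6.75 FPKM in wildtype livers, and their part in the value of Nfe2 was not tested. Sqstm1, which encodes p62, a protein that can pull KEAP1 into autophagy and is itself induced by NRF2, was the most abundant, at 220 FPKM in knockout livers and 200 FPKM in wildtype livers (0.14 ± 0.24). The list median was -0.06 under the same-sum scaling.

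The other NRF2 targets lay mostly on the lower side, with 23 of 28 ratios below 0 and a median of -0.15. Those below 0 included every listed glutathione transferase gene, Gsta1 to Gsta4, Gstm1 to Gstm4 and Gstp1. The count is therefore not one of unrelated genes. Of all tested genes with a finite ratio, 49.9% were above 0. Under the same-sum scaling 27 of the 28 were below 0, with a median of -0.34. That scaling left 22.8% of all genes above 0, with a median of -0.20. Gstm3, a glutathione transferase of the mu class, fell to 41.2 FPKM in knockout livers, against 81.4 FPKM in wildtype livers (-0.98 ± 0.25, q = 0.0106 in the authors' deposited table). Below an unadjusted p of 0.05 there were 5 genes, all lower; 2.47% of all tested genes were lower at that p. Beside Gstm3 these were Gsta4, Gsta2 and Gstm2, further glutathione transferases, and Abcc3, an exporter of conjugates, named after their values were seen. Gsta4 had 47.1 FPKM in knockout livers and 79.9 FPKM in wildtype livers (-0.76 ± 0.23, q = 0.0716 in the authors' deposited table). Gsta2 had 4.09 FPKM in knockout livers and 9.34 FPKM in wildtype livers (-1.19 ± 0.38, q = 0.102 in the authors' deposited table). Under the same-sum scaling Gsta4 (q = 0.00368) and Gsta2 (q = 0.0181) passed as well, which made 3 lower of 28. That scaling takes 0.195 from every log2 ratio and keeps the errors, so ratios below 0 move further from 0. Over all 11515 tested genes it gave 140 called lower, against 58 as deposited. At a q under 0.1 as deposited there were 2, Gstm3 and Gsta4, beside 1.42% of all tested genes. Other listed transferases, named after their values were seen, lay nearer to 0. Gstm4 had a ratio of -0.13 ± 0.28. Gstp1 had 1707 FPKM in knockout livers and 1713 FPKM in wildtype livers (-0.0048 ± 0.29). The transferases have close relatives, and reads could be split among them. Ftl1, the ferritin light chain, was the most abundant of the list, at 4166 FPKM in knockout livers and 4724 FPKM in wildtype livers (-0.18 ± 0.40). Hmox1, heme oxygenase 1, another textbook target and also named after its value was seen, had 19.2 FPKM in knockout livers and 15.4 FPKM in wildtype livers (0.32 ± 0.25).

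In glutathione supply and turnover, Chac1, which breaks down glutathione inside the cell, rose to 6.21 FPKM in knockout livers, against 1.85 FPKM in wildtype livers (1.75 ± 0.37, q = 0.000521 in the authors' deposited table). The list median was -0.05 with 11 of 24 ratios above 0, and -0.24 with 7 above 0 under the same-sum scaling. Over all tested genes with a finite ratio, 49.9% and 22.8% were above 0. Slc1a4, a transporter of neutral amino acids named after its value was seen, was the other gene at an unadjusted p under 0.05, with 1.65 FPKM in knockout livers and 0.786 FPKM in wildtype livers (1.07 ± 0.37, q = 0.201 in the authors' deposited table). Gss, which adds the glycine in the second step of glutathione synthesis and was named after its value was seen, had 60.2 FPKM in knockout livers and 53.1 FPKM in wildtype livers (0.18 ± 0.22). Gnmt, a glycine methyltransferase that disposes of methyl groups, was the most abundant, at 2125 FPKM in knockout livers and 2474 FPKM in wildtype livers (-0.22 ± 0.34).

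The 20 thioredoxin and glutaredoxin genes had a median ratio of 0.05 (-0.14 under the same-sum scaling), from -0.37 to 0.41, and 0 at an unadjusted p under 0.05. Glrx5, a mitochondrial glutaredoxin of iron-sulfur cluster assembly, had the smallest p, at 162 FPKM in knockout livers and 210 FPKM in wildtype livers (-0.37 ± 0.22). Msrb1, a selenoprotein that reduces oxidised methionine, was the most abundant, at 840 FPKM in knockout livers and 665 FPKM in wildtype livers (0.34 ± 0.26).

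The reductases among the members draw on NADPH, and 15 of the 17 tested genes of NADPH supply had ratios below 0, with a median of -0.20. Of all tested genes with a finite ratio, 49.9% were above 0. Under the same-sum scaling all 17 were below 0, with a median of -0.40 beside -0.20 over all tested genes, of which 22.8% were above 0. Me1, the cytosolic malic enzyme, which makes NADPH and also serves fatty acid synthesis, fell to 43.9 FPKM in knockout livers, against 86.3 FPKM in wildtype livers (-0.98 ± 0.23, q = 0.00423 in the authors' deposited table). The other 16 did not pass. Of these Rpia, a pentose phosphate isomerase named after its value was seen, had an unadjusted p of 0.0154, at 2.69 FPKM in knockout livers and 4.74 FPKM in wildtype livers (-0.82 ± 0.34). Aldh1l1, a folate enzyme that yields NADPH, was the most abundant, at 483 FPKM in knockout livers and 564 FPKM in wildtype livers (-0.22 ± 0.32).

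**Figure D4:**
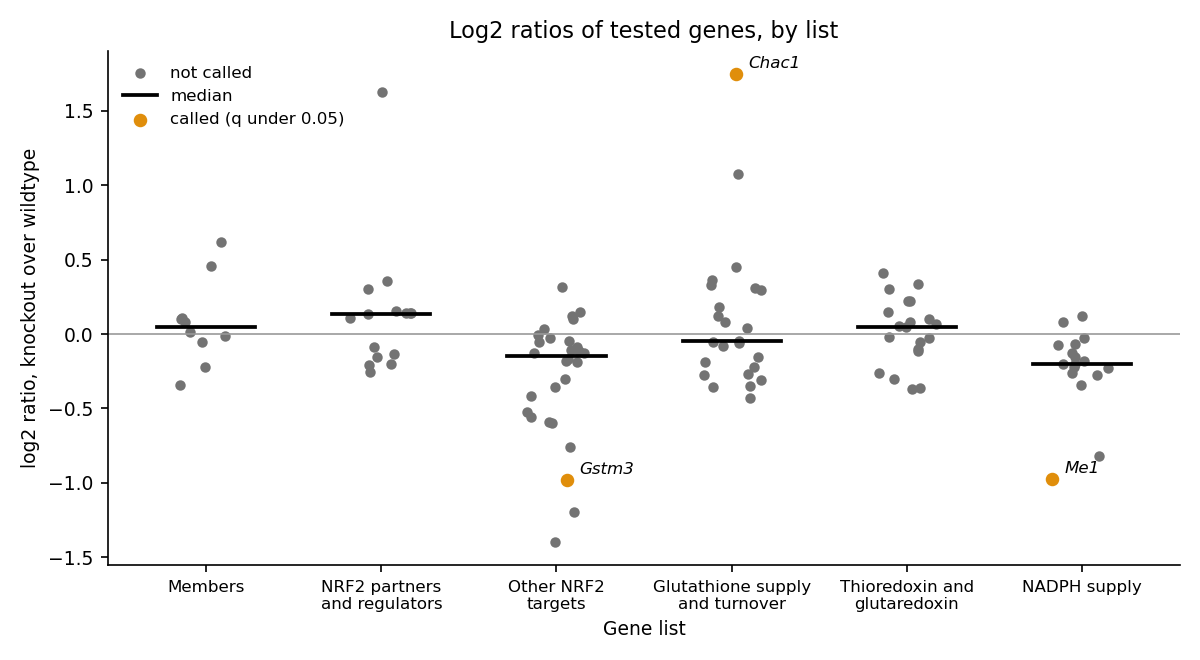
Log2 ratio of knockout over wildtype of every tested gene in the members' list and in the 5 related lists (points, spread sideways for legibility), with called genes in orange and list medians as bars. The medians run from -0.20 for NADPH supply to 0.14 for NRF2 partners and regulators, and the called genes are Gstm3, Chac1 and Me1.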

How the data were processed

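Per the labels' protocols, RNA of frozen tissue was extracted with Trizol, and 1 ug of it went into each TruSeq RNA library. The design text gives single-end reads of 50 bases. The submitters' processing notes name Bowtie2 and mm10; no source used here names the program behind the table. The authors deposited 1 expression value per genotype. Its unit is not named in the header; its columns are those of Cuffdiff, so the deposited values were read as FPKM. Read totals and depth per library are unknown. The deposited test statistic is a score that matches a standard normal z, its p-value follows from it to within 2.63e-06, and the deposited q-value is the Benjamini-Hochberg adjustment over 11515 tested genes to within 1.99e-06. The authors' log2 ratio has wildtype on top and was turned round.

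A gene was called at q under 0.05. Standard errors are the log2 ratio divided by z, and 95% intervals use the normal distribution; both come from the authors' model. Nothing beyond the numbers in the sample names says that each library is a separate mouse. Ratios were recomputed after scaling to the same sum or upper quartile, after quantile normalization, with pseudocounts of 0.5 and 1, and over genes with a mean of at least 1 FPKM, using Python 3.11.15, pandas 2.3.3 and scipy 1.17.1; the retest was tested on simulated data. The members and lists were chosen with earlier results of these data known. All members are named. From each related list the text names the called genes, or otherwise those with the smallest p, and the most abundant gene. Gsta4, Gsta2, Gstm2, Abcc3, Hmox1, Gss, Slc1a4 and Rpia were added after their values were seen. So were Gsta1, Gsta3, Gstm1, Gstm4 and Gstp1. Of 112 listed related genes 102 were tested. Wdr23, Tf and Adgre1 were looked up as Dcaf11, Trf and Emr1, and Ly6g was not analysed here. Table starts count from 0 and had 1 added. A planned comparison of protein sequences was not made, and no likeness between gene patterns was measured, since each gene has 2 values.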

Additional observations from a re-analysis of the deposited data

How the results depend on the processing

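The count of 0 called members held under every alternative that gives a test: same sum, same upper quartile, quantile normalization, a mean of at least 1 FPKM, and a q threshold of 0.1. The smallest q of a member in these was 0.320, for Osgin1. Of 60 recomputed member ratios, 56 kept their sign. A pseudocount cannot change a sign, and the filter on the mean left the member ratios as deposited. Only the same-sum, upper quartile and quantile settings could therefore have reversed one. The 4 that reversed did so when both genotypes were scaled to the same sum: Keap1 (-0.18), Gclm (-0.093), Srxn1 (-0.12) and Cbr3 (-0.090). That scaling moved the median of all tested genes to -0.20, so the 4 lie above that median. It left 2 members above 0, in place of 6, and a member median of -0.15, in place of 0.05. Over all genes it gave 189 calls, 49 higher and 140 lower, against 66 higher and 58 lower as deposited. The same 5 settings were tried on the 5 related lists after the data were seen, and Gstm3, Chac1 and Me1 stayed called in the same direction in each. Of the other NRF2 targets 3 were called under the same-sum scaling and 2 at a q under 0.1, in place of 1, and the other 4 lists kept their counts under these settings. No paired analysis was possible because the table has 1 value per genotype and the sample numbers of the genotypes do not coincide. For the same reason leaving out each replicate was not run, so it is unknown whether 1 mouse decides a value. Depth is unknown, and the model errors limit Cbr3 and Nqo1 most.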

Other observations

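Ratios between 2 genes of the same group do not depend on how the groups are scaled. They were formed for 5 pairs chosen after the values were seen, and have no test and no error. Keap1 over Nfe2l2 was 1.13 in knockout livers and 0.878 in wildtype livers. The catalytic over the modifier subunit of glutamate-cysteine ligase, Gclc over Gclm, was 0.975 in knockout livers and 0.763 in wildtype livers. Osgin1 over Nfe2l2 was 5.48 in knockout livers and 2.82 in wildtype livers. This pair sets the member with the highest log2 ratio over the one with the lowest, so its difference is the largest by construction. Gsr over Txnrd1 was 0.757 in knockout livers and 0.676 in wildtype livers, and Nqo1 over Gclm was 0.0383 in knockout livers and 0.0414 in wildtype livers.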
